A study of Mus musculus with 23 samples.

Results

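DNA methylation was described at 9 genes for transcription factors of the trophoblast lineage: Elf5, Cdx2, Eomes, Tfap2c, Ets2, Esrrb, Hand1, Gata3 and Tead4. They are 9 of 20807 autosomal protein-coding genes in the annotation (GRCm38). For each gene, every window of 100 CpGs that overlapped the gene body or the 5 kb upstream of it was taken. This gave 126 of 333984 windows at embryonic day (E) 6.5 and 141 of 402812 windows at E7.5. The window containing the annotated start of the gene, termed here the start window, was kept apart from the others, termed the rest of the locus.

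Post-bisulphite adaptor tagging (PBAT) had been applied to mouse epiblast, the precursor of the embryo proper, and to extra-embryonic ectoderm (ExE), the precursor of placental trophoblast. Embryos came from reciprocal crosses of C57BL6/Babr (B6) and CAST/Ei (CAST), with the maternal strain named first. At E6.5 there were 6 wild type epiblast libraries (3 B6/CAST and 3 CAST/B6) and 4 wild type ExE libraries (2 of each cross). The matDKO/CAST libraries, 2 of epiblast and 3 of ExE, came from mothers of B6/129 background carrying Dnmt3a fl/fl, Dnmt3b fl/fl and Zp3-cre, mated with CAST fathers. Zp3-cre acts in the growing oocyte, so both de novo methyltransferases were deleted from the oocyte and the embryos were Dnmt3a -/+ and Dnmt3b -/+. Each E6.5 library was made from a pool of embryos, as the input part of MNase-digested chromatin. At E7.5 there were 4 epiblast and 4 ExE libraries, 2 of each tissue and cross, from single embryos. In such bulk material a lower level in every cell and a lower level in a share of the cells cannot be told apart. No RNA was read here, so neither the tissue labels nor the deletion were checked against marker genes.

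The mouse trophoblast lineage begins when TEAD4 activates Cdx2 and Gata3 in the outer cells of the preimplantation embryo. EOMES, ELF5, TFAP2C (AP-2 gamma), ETS2 and the orphan nuclear receptor ESRRB then act in trophoblast stem cells and in the ExE, where ELF5 forms a positive loop with CDX2 and EOMES. HAND1 drives the differentiation of trophoblast giant cells. Several of these factors are used again in the embryo, EOMES in the primitive streak, CDX2 in the posterior embryo, HAND1 in mesoderm and GATA3 in ectodermal derivatives. Methylation of a promoter can go with silencing, but most CpG-dense promoters (CpG islands) are free of methylation whether or not the gene is transcribed.

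The members differed in the CpG content of their promoters. RefSeq promoters (GRCm38.p6, 250 bases before to 50 after the start) were matched for 6 of the 9 members and gave 8 sequences. The median promoter of the 32851 in the table held 7 CpGs. The promoters of Elf5 and Esrrb, with an upstream and an internal start each, are shown because their methylation differed most from that of the other members, and those of Cdx2 and Gata3 because they represent the CpG-dense members. In each sequence the capitals mark CpG dinucleotides and the letters run 5′ to 3′ on the strand of the gene.
Elf5 upstream start (chr2:103411848-103412147, plus strand): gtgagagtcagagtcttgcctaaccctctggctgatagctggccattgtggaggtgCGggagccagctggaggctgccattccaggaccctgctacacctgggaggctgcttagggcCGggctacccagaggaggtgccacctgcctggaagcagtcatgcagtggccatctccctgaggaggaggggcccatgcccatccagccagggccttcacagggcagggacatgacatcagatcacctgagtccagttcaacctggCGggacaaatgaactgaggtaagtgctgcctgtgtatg
Elf5 internal start (chr2:103423818-103424117, plus strand): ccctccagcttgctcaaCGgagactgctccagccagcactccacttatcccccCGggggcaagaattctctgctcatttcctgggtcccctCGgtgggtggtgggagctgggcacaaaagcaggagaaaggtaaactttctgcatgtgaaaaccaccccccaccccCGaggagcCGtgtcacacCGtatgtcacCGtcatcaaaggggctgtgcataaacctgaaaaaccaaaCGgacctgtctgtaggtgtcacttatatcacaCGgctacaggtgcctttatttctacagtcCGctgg
Esrrb upstream start (chr12:86360867-86361166, plus strand): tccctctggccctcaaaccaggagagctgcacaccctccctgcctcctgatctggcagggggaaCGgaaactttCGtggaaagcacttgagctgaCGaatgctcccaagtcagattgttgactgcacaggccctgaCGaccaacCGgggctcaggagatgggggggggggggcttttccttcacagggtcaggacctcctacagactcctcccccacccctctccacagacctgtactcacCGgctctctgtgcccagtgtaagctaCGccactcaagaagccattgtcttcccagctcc
Esrrb internal start (chr12:86421394-86421693, plus strand): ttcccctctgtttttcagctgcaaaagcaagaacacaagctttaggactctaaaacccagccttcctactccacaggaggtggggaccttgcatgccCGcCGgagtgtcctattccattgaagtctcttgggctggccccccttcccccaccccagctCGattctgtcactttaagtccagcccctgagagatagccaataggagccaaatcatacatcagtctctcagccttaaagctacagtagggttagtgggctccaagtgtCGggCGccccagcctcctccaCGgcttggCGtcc
Cdx2 (chr5:147307200-147307499, minus strand): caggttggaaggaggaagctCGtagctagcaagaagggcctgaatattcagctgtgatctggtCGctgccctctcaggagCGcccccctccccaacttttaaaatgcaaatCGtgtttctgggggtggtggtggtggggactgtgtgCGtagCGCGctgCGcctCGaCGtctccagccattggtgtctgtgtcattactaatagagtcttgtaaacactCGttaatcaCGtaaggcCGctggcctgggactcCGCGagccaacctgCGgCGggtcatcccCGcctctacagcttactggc
Gata3 internal start (chr2:9878551-9878850, minus strand): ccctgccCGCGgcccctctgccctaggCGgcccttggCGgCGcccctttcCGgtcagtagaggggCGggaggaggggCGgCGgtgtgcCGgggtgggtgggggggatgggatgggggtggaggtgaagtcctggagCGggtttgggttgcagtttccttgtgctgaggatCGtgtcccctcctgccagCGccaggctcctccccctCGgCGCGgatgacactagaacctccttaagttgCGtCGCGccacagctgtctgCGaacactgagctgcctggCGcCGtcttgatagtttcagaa

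The upstream Elf5 promoter held 3 CpGs, and 76.7% of all promoters held as many or more. Its internal promoter held 10 (43.5% held as many or more), and both Esrrb promoters held 7 (52.1%). The Cdx2 promoter held 18 (29.7%), the Gata3 promoter 22 (23.1%), the Eomes promoter 10 and the Ets2 promoter 30 (11.7%). A window always spans 100 CpGs, so its length is short where CpGs are dense. The E7.5 start window of Elf5 accordingly spanned 4811 bp and that of Esrrb 2339 bp, against 558 bp for Tfap2c and 618 bp for Cdx2.

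Levels over the whole genome set the frame for these loci. At E7.5 the mean over the windows with a value in every library ranged from 71.7% to 75.6% in the epiblast libraries and from 56.0% to 59.2% in ExE. At E6.5 it was 65.9% to 74.9% in B6/CAST epiblast, 78.6% to 79.4% in CAST/B6 epiblast, 53.5% in both B6/CAST ExE libraries and 63.8% to 66.2% in CAST/B6 ExE. The matDKO/CAST libraries were the lowest, at 53.1% to 54.7% in epiblast and 39.6% to 41.8% in ExE. Up to 27.8% of windows had no value in an E6.5 library (matDKO/CAST epiblast replicate 3), and at most 0.0973% at E7.5, so the E7.5 values are given first. The number of reads behind a value is unknown. All p-values measure the spread between libraries.

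At E7.5 the start window of Elf5 was less methylated in ExE than in epiblast, and that of Gata3 was more methylated, while the other 7 did not pass the test. Elf5 encodes an ETS-family factor that maintains the trophoblast stem cell state. Its start window (chr2:103411630-103416440) had 84.5% and 80.4% in the B6/CAST epiblasts, 92.6% and 86.0% in the CAST/B6 epiblasts, 69.1% and 60.8% in B6/CAST ExE, and 62.1% and 63.5% in CAST/B6 ExE. The highest ExE library lay below the lowest epiblast library. The means were 85.9% ± 5.06 and 63.9% ± 3.65 (SD, n = 4 each), a difference of -22.0 percentage points (SE 3.09, adjusted p = 0.000299, limma across all windows). Both tissues were thus mostly methylated at this window. The start window of Gata3 (chr2:9889351-9891267), a GATA factor of the trophectoderm, had 1.71% and 3.26% (B6/CAST) and 0% and 0% (CAST/B6) in epiblast, and 8.85%, 10.1%, 9.17% and 7.96% in ExE. The tissues did not overlap there either, but both were low, and the difference was 7.78 points (SE 1.91, adjusted p = 0.00476). The Gata3 promoter printed above lies inside the gene, mostly in another window that is given below and was not called. Over all start windows of protein-coding genes, 44.6% were called lower and 2.88% higher in ExE, with a median difference of -4.80 points, so 1 lower and 1 higher among 9 members is read against those shares.

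**Figure D1:**
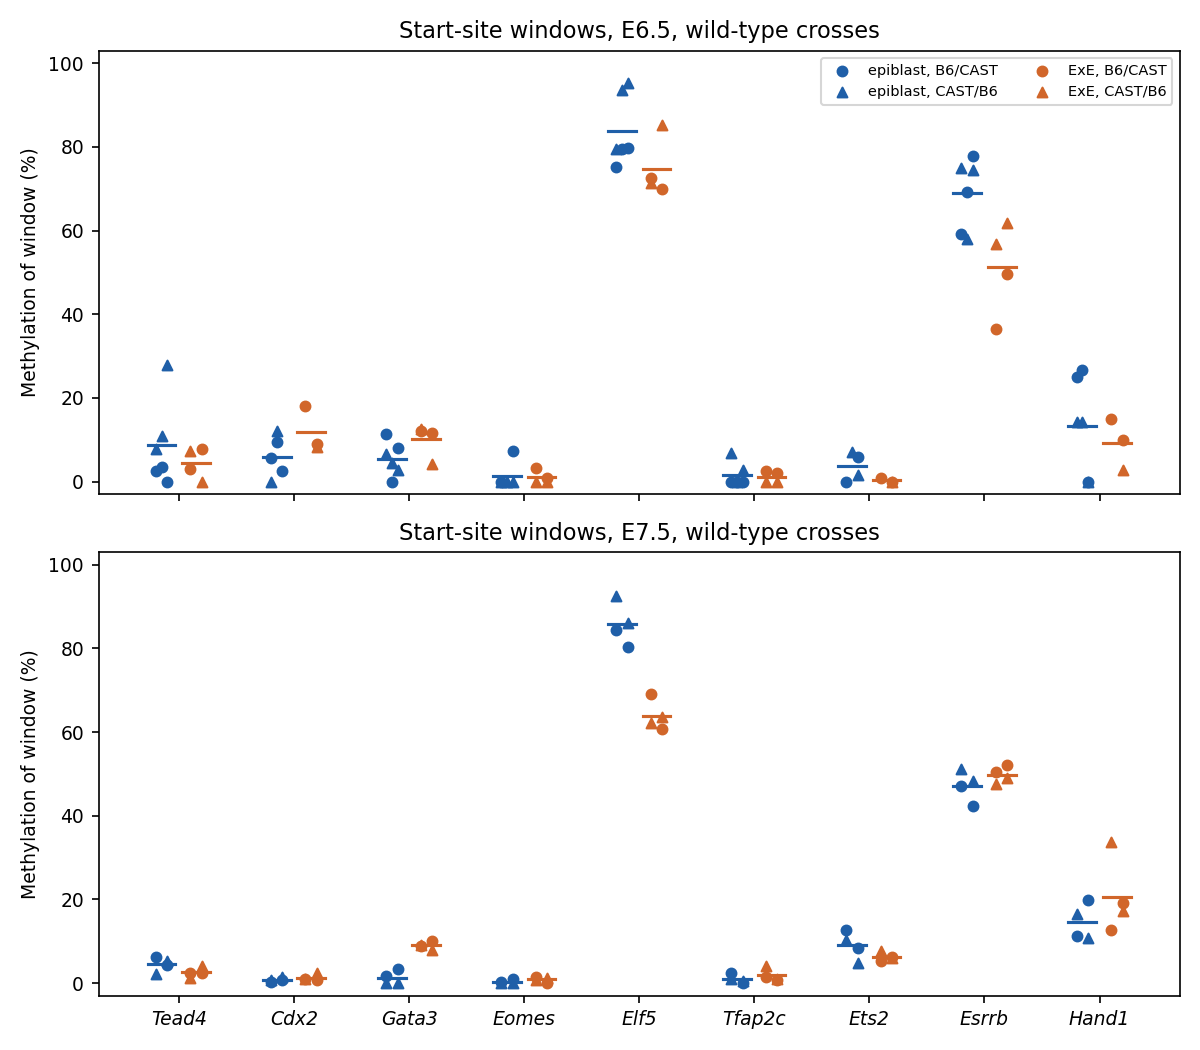
Methylation (percent) of the start window of each member at E6.5 and E7.5. Points are libraries (circles B6/CAST, triangles CAST/B6), blue is epiblast, orange is ExE and the short lines are means of the measured libraries; the Elf5 and Esrrb windows lie well above those of the other members, and at E7.5 the ExE points of Elf5 (60.8% to 69.1%) lie below all epiblast points.

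The plot of start windows by library shows 3 levels among the members. Elf5 was highly methylated. Esrrb, an estrogen-related orphan receptor, was intermediate, with 47.0%, 42.2%, 51.3% and 48.2% in epiblast and 50.5%, 52.2%, 47.5% and 49.0% in ExE, and the tissues overlapped (difference 2.64 points, SE 2.54, adjusted p = 0.353). The other 7 were low, with Hand1 the highest of them at 10.9% to 19.8% in epiblast and 12.8% to 33.7% in ExE. Its upper end in ExE came from 1 library, CAST/B6 replicate 1, and the difference was 6.09 points (SE 4.39, adjusted p = 0.219). Ets2 had 4.71% to 12.8% in epiblast and 5.26% to 7.56% in ExE (adjusted p = 0.291), and Tead4, which encodes the most upstream factor of the group, 2.24% to 6.27% and 1.16% to 4.05% (adjusted p = 0.378). The start windows of Cdx2, Eomes and Tfap2c were nearly free of methylation in each of the 8 libraries. Their highest values were 2.35% for Cdx2 (adjusted p = 0.829), 1.57% for Eomes (adjusted p = 0.792) and 4.15% for Tfap2c (adjusted p = 0.706), each in an ExE library.

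At E6.5, 5 of the 9 start windows had a value in every wild type library. That of Elf5 (chr2:103407838-103413656, which reaches further upstream than the E7.5 window) had a lowest, median and highest value of 75.2%, 79.7% and 95.2% in the 6 epiblast libraries. In ExE it had 72.5% and 69.9% (B6/CAST) and 71.4% and 85.2% (CAST/B6), so that the last of these lay inside the epiblast range. The difference of -9.07 points (SE 4.47, adjusted p = 0.0954) did not pass the test. The start window of Esrrb (chr12:86358012-86361245) had 58.1%, 71.9% and 77.8% as the lowest, median and highest epiblast value and 36.5%, 49.6%, 56.9% and 61.9% in ExE. It was the single member called at E6.5, at -17.7 points (SE 5.65, adjusted p = 0.0189), with 1 ExE library inside the epiblast range. The call was lost on the logit scale (adjusted p = 0.0569) and without B6/CAST ExE replicate 1, the lowest library (-13.4 points, adjusted p = 0.0767). Background shares at E6.5 were 38.7% lower and 1.48% higher, with a median of -10.2 points.

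The other 3 tested windows were low at E6.5. Gata3 had 0%, 5.46% and 11.4% (lowest, median and highest) in epiblast and 12.2%, 11.5%, 12.5% and 4.17% in ExE (difference 4.58 points, adjusted p = 0.303). In this case 3 of the 4 ExE libraries lay above all epiblast libraries, but the fourth did not. Tead4 had 0% to 27.8% and 0% to 7.78% (adjusted p = 0.473), and Tfap2c 0% to 6.90% and 0% to 2.50% (adjusted p = 0.913). Cdx2, Eomes, Ets2 and Hand1 lacked a value in at least 1 library and did not enter this fit; with values required in at least 2 libraries a group none was called (-5.53 to 5.82 points, adjusted p 0.309 to 0.875). Their measured epiblast libraries reached at most 12.2%, 7.25%, 7.14% and 26.7%, and their measured ExE libraries at most 18.2%, 3.26%, 0.909% and 15%.

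These directions depend on how the lower overall level of ExE is treated. Subtracting each library's own mean adds 16.3 points to every ExE minus epiblast difference at E7.5 and 16.5 points at E6.5. Measured this way, the Elf5 start window stayed lower in ExE at E7.5 (-5.67 points) without passing the test (adjusted p = 0.143), but was 7.42 points higher at E6.5. The other 8 start windows were then called higher at E7.5, by 13.6 to 24.1 points. Over all windows, 79853 of 383556 were then called higher and 72868 lower. A window near 0% in both tissues cannot be lower in ExE by as much as the library means. Its call on this scale therefore follows from the constant added. As deposited, the values of these 8 windows differed by -2.77 to 7.78 points between tissues.

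Along each gene the tissue difference was uneven, and the largest differences lay away from the annotated gene start. In Elf5, 9 of 11 E7.5 windows (81.8%) were called lower in ExE and none higher, a share close to that of all windows (82.9%). An intronic window, chr2:103421221-103424012, had 79.3%, 86.1%, 72.0% and 86.1% in epiblast and 48.2%, 35.3%, 49.2% and 44.7% in ExE (difference -36.5 points, SE 4.27, adjusted p = 0.00015). The adjoining window chr2:103424013-103426371, which contains 3 further annotated starts of Elf5, had 57.6%, 64.2%, 72.2% and 73.8% in epiblast and 39.1%, 25.1%, 48.3% and 28.4% in ExE (-31.7 points, SE 4.78, adjusted p = 0.000408). The second RefSeq promoter printed above spans the boundary between these windows, with 195 of its 300 bases in the former.

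The same stretch of Elf5 differed more at E6.5. The window chr2:103420839-103424084, which holds 267 bases of that promoter, had 76.4%, 83.7% and 98.1% (lowest, median and highest) in epiblast and 18.1%, 38.0%, 39.1% and 14.3% in ExE, a difference of -57.8 points (SE 6.01, adjusted p = 0.000408). The next window, chr2:103424112-103426923, had 42.5%, 61.8% and 80.4% in epiblast and 10.7%, 10.8%, 50% and 12.9% in ExE (-42.2 points, SE 7.09, adjusted p = 0.00104). CAST/B6 ExE replicate 1 stood apart in the latter and fell inside the epiblast range, while in the former no ExE library did. Windows are not the same at both days, so no test was made between days.

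**Figure D2:**
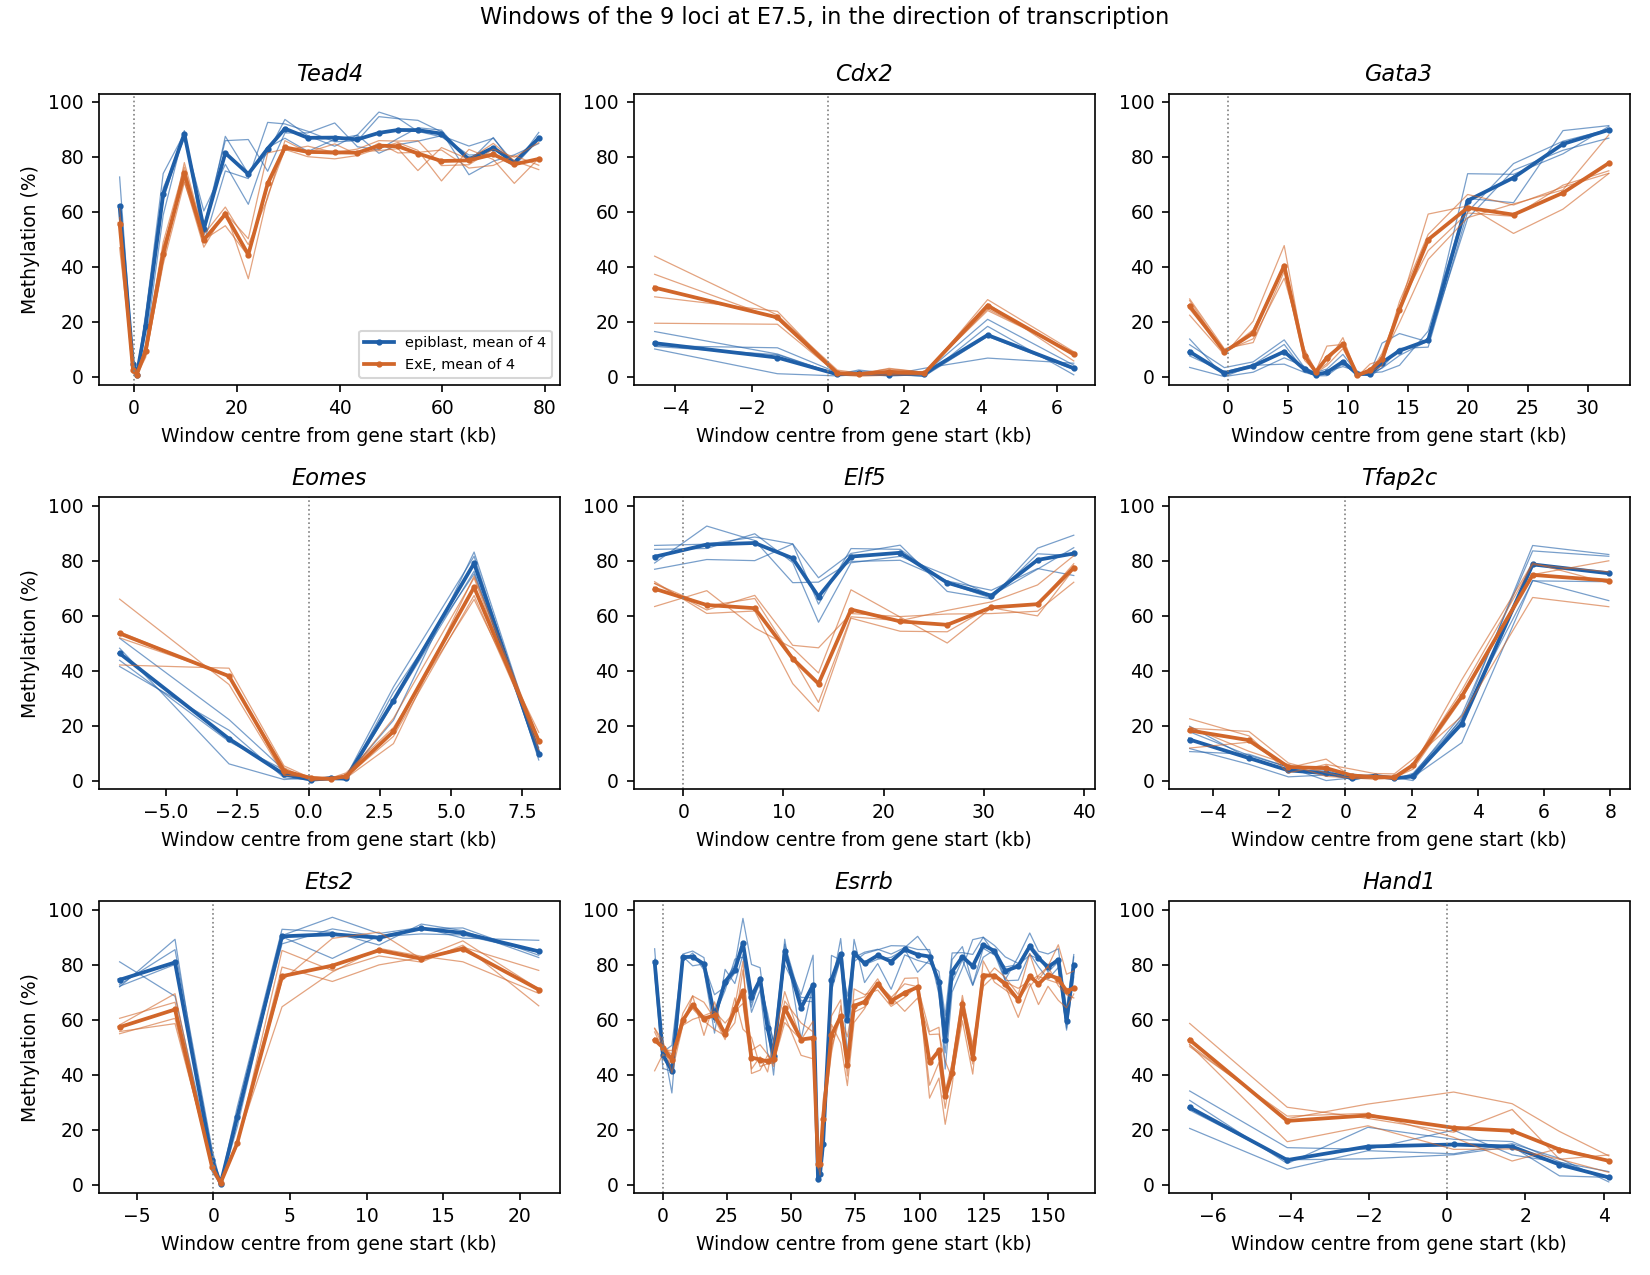
Methylation (percent) along each member locus at E7.5 against the distance of the window centre from the gene start (kb, in the direction of transcription; the dotted line marks the start). Thin lines are libraries and thick lines means of 4 (blue epiblast, orange ExE); ExE lies below epiblast over most of Elf5, Ets2, Esrrb and Tead4, and above it upstream of Cdx2 and Hand1, in 1 window upstream of Eomes and over much of Gata3.

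In the plot along the loci, Gata3 showed the opposite pattern to Elf5, with 9 of 17 windows called higher and 3 lower in ExE at E7.5, against 1.30% and 82.9% of all windows. The window chr2:9871960-9874696, which overlaps an exon and an internal start, had 13.0%, 12.6%, 16.5% and 10.7% in epiblast and 45.8%, 59.1%, 51.7% and 42.6% in ExE (36.6 points, SE 3.61, adjusted p = 9.69e-05). The intronic window chr2:9884212-9886430 had 11.7%, 13.4%, 6.82% and 4.52% against 39.8%, 38.2%, 35.8% and 47.7% (31.3 points, SE 3.24, adjusted p = 0.000107). Both stood well apart from the CpG-dense window chr2:9877567-9878772 between them, which holds 222 bases of the Gata3 promoter printed above. That window had 1.04%, 1.28%, 1.36% and 0% in epiblast and 1.67%, 1.43%, 4.57% and 1.68% in ExE (1.42 points, adjusted p = 0.518). Upstream of the gene, chr2:9891361-9895038 had 3.33% to 13.7% in epiblast and 22.3% to 28.3% in ExE (16.7 points). The 3 lower windows lay together at the 3′ end, where chr2:9859816-9864364 had 81.1% to 89.5% in epiblast and 60.9% to 69.7% in ExE (-17.8 points, adjusted p = 0.000311). The other 5 Gata3 windows, the CpG-dense one among them, were not called. At E6.5 the window chr2:9871973-9874786 had 7.02%, 18.9% and 28.5% (lowest, median and highest) in epiblast and 48.9%, 40.4%, 56.0% and 50% in ExE (31.3 points, SE 5.09, adjusted p = 0.000926), again without overlap.

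The windows upstream of Hand1 and Cdx2, and 1 of the 3 upstream of Eomes, were called higher in ExE. Hand1 encodes a basic helix-loop-helix factor, and 4 of its 7 E7.5 windows were called higher and none lower (1.30% and 82.9% of all windows). The outermost, chr11:57837591-57841208, had 20.4%, 34.1%, 30.6% and 27.1% in epiblast and 50.9%, 58.6%, 50.9% and 50.2% in ExE (24.6 points, SE 3.45, adjusted p = 0.000298). The homeobox gene Cdx2 had 3 of 8 windows called higher and none lower, to be read against the same shares. Its most distal window, chr5:147310292-147313332, had 10.0%, 11%, 16.4% and 11.2% in epiblast and 19.4%, 37.2%, 29.0% and 43.8% in ExE (20.2 points, SE 4.52, adjusted p = 0.00293). Next to the start, chr5:147307334-147309857, which holds 166 bases of the Cdx2 promoter, had 1.04%, 7.96%, 8.22% and 10.5% against 19%, 20.9%, 23.7% and 22.4% (14.6 points, SE 2.28, adjusted p = 0.000482). The ExE libraries lay above all epiblast libraries in each of these windows.

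Eomes, a T-box gene, was called higher in 1 of 9 windows and lower in 2, against 1.30% and 82.9% of all windows. Upstream, chr9:118473951-118476898 had 18.3%, 6.07%, 22.2% and 14.2% in epiblast and 38.4%, 37.7%, 40.9% and 35% in ExE (22.8 points, SE 3.43, adjusted p = 0.000402). Within the gene, chr9:118479871-118482510 had 21.9% to 34.1% against 13.5% to 22.7% (-11.2 points, adjusted p = 0.00486) and chr9:118482738-118485297 75.2% to 83.1% against 65.9% to 74.4% (-8.70 points, adjusted p = 0.0253). The 2 directions within Eomes were 1 upstream and 2 in the gene body, and a mean over the locus therefore nearly cancels. For Tfap2c, 2 of 11 windows were called higher and none lower, with differences of 6.51 points (chr2:172546116-172547261, adjusted p = 0.0285) and 9.94 points (chr2:172552009-172554211, adjusted p = 0.0094), and the tissues overlapped in the second.

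At E6.5 fewer of these upstream windows had a value in every library. The Eomes window chr9:118469652-118476044 had 48.1%, 67.4% and 77.7% (lowest, median and highest) in epiblast and 75.4% to 83.3% in ExE (12.8 points, SE 4.4, adjusted p = 0.0262). Upstream of Cdx2, chr5:147308542-147313128 had 0% to 23.9% in the measured epiblast libraries and 30% to 47.5% in ExE. Upstream of Hand1, chr11:57836713-57838208 had 9.21% to 28.6% against 33.1% to 39.2%. The tissues did not overlap in the latter pair of windows, but a value was missing in at least 1 library. With values required in at least 2 libraries a group, both were called higher in ExE, that of Cdx2 by 26.7 points (SE 6.81, adjusted p = 0.00935) and that of Hand1 by 18.9 points (SE 4.42, adjusted p = 0.00649).

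In Esrrb, Tead4 and Ets2 more windows were called lower than higher in ExE, as among all windows (82.9% lower and 1.30% higher at E7.5). Esrrb, with 45 windows at E7.5, was called lower in 34 (75.6%) and higher in 3. Its lowest window, chr12:86462942-86467119 in an intron, had 81.8%, 80.4%, 84.2% and 85.5% in epiblast and 55.6%, 36.2%, 54.6% and 31.5% in ExE (-38.5 points, SE 5.59, adjusted p = 0.000344). A second, chr12:86472095-86475520, differed by -36.8 points (SE 2.17, adjusted p = 7.92e-05). The internal Esrrb promoter printed above lies whole within chr12:86421199-86422034, where epiblast had 1.28%, 0.933%, 2.64% and 2.68% and ExE 6.73%, 7.21%, 9.74% and 5.87% (5.50 points, SE 1.97, adjusted p = 0.0273). The internal promoter of Esrrb was thus low in both tissues, unlike its upstream one. The other higher windows were chr12:86422697-86424462 (9.11 points) and chr12:86517210-86519522 (10.9 points). Tead4 was called lower in 10 of 22 windows (45.5%) and higher in none, with the largest difference at chr6:128276540-128280645, where epiblast had 86.3%, 62.7%, 72.0% and 73.8% and ExE 50.2%, 35.6%, 48.0% and 43.8% (-29.3 points, SE 5.19, adjusted p = 0.000879). Ets2, which encodes another ETS-family factor, was called lower in 8 of 11 (72.7%) and higher in none. These 3 shares all lie below that of all windows.

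Averaged over the rest of the locus at E7.5, Elf5, Esrrb, Ets2 and Tead4 were lower in ExE, Hand1, Cdx2 and Gata3 were higher, and Eomes and Tfap2c did not pass the test. For Elf5 the means over 10 windows were 77.5%, 78.8%, 76.4% and 80.2% in epiblast and 58.5%, 56.8%, 61.2% and 60.9% in ExE (-18.9 points, SE 1.29, adjusted p = 7.91e-06). Esrrb had 70.1% to 71.8% against 55.6% to 58.3% (-13.9 points, SE 1.10, adjusted p = 1e-05), and Ets2 71.8% to 72.4% against 59.2% to 63.4% (-10.5 points, SE 1.16, adjusted p = 3.92e-05). Tead4 had 73.3% to 75.4% against 64.3% to 67.0% (-8.66 points, SE 1.11, adjusted p = 8.82e-05). No ExE library reached the epiblast range in these 4 genes. The 3 higher genes had low levels in both tissues.

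Of those, Hand1 had 10.6%, 14%, 14.2% and 10.9% in epiblast and 19.1%, 26.4%, 27.2% and 21.9% in ExE (11.2 points, SE 2.0, adjusted p = 0.000569). Cdx2 had 4.27%, 5.92%, 7.39% and 5.49% against 10.7%, 13.8%, 13.0% and 14.9% (7.32 points, SE 1.17, adjusted p = 0.000302), and Gata3 22.2% to 24.4% against 28.0% to 29.4% (5.34 points, SE 1.02, adjusted p = 0.000848). The tissues did not overlap in any of them. Eomes had 22.5% to 24.1% against 24.4% to 26.0% (2.08 points, SE 0.979, adjusted p = 0.0676), which turned to -2.93 points (adjusted p = 0.0232) in the gene body alone, and Tfap2c 19.2% to 23.2% against 21.4% to 24.1% (2.05 points, SE 1.01, adjusted p = 0.0769). Of all genes, 95.4% were called lower and 1.42% higher in ExE at E7.5 (median -11.6 points), against 4 lower and 3 higher among the 9 members.

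**Figure D3:**
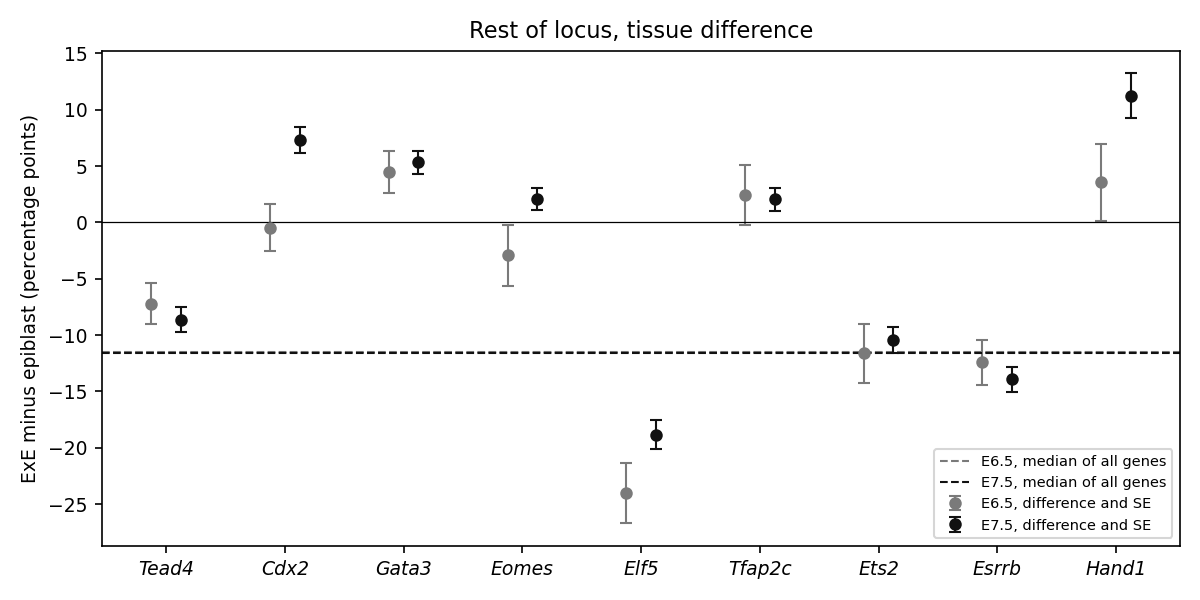
Difference in methylation (ExE minus epiblast, percentage points ± SE) averaged over the rest of each member locus, at E6.5 (grey) and E7.5 (black). The dashed lines mark the median of all genes at each day (-11.5 and -11.6 points); Elf5 lies furthest below 0 and Hand1, Cdx2 and Gata3 lie above it at E7.5.

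At E6.5 the rest of the locus was lower in ExE for the same 4 genes and higher for Gata3. Elf5 had 71.4%, 80.3% and 85.8% (lowest, median and highest) in epiblast and 52.5% to 60.9% in ExE (-24.0 points, SE 2.67, adjusted p = 8.95e-05). Esrrb differed by -12.4 points (SE 1.99, adjusted p = 0.000391), Ets2 by -11.6 points (SE 2.60, adjusted p = 0.00244) and Tead4 by -7.22 points (SE 1.80, adjusted p = 0.00431). Gata3 had 26.4% to 30.6% in epiblast and 30.8% to 36.9% in ExE (4.49 points, SE 1.85, adjusted p = 0.0431). The tissues were close but did not overlap, and the call was lost without any 1 of 6 libraries (epiblast B6/CAST 1 and CAST/B6 1, 2 and 3, ExE B6/CAST 2 and CAST/B6 2), with 3.03 to 4.62 points and adjusted p of 0.0552 to 0.155. Hand1 (3.56 points, adjusted p = 0.336), Tfap2c (2.41 points, 0.401), Cdx2 (-0.474 points, 0.833) and Eomes (-2.94 points, 0.326) did not pass the test. Their means covered only windows with a value in every library: 4 of 5 for Hand1, 8 of 10 for Tfap2c, 4 of 6 for Cdx2 and 5 of 7 for Eomes. Upstream windows of Hand1, Cdx2 and Eomes were among those left out. Of all genes, 81.3% were called lower and 1.08% higher (median -11.5 points).

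Relative to the mean of each library, which leaves the order of the members as it is, the rest of the Elf5 locus differed by -7.55 points at E6.5 (adjusted p = 0.0251) and -2.54 points at E7.5 (adjusted p = 0.164). The directions of Esrrb (4.07 and 2.41 points at E6.5 and E7.5), Ets2 (4.85 and 5.86 points) and Tead4 (9.26 and 7.67 points) turned on this scale. The differences of these 3 genes were therefore smaller than that between the library means. With that scale 8 members were called higher at E7.5, against 11528 of 20060 over all genes. Of the calls over all genes 77.0% were then higher, against 1.47% without it.

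Over all member windows at E7.5, 66 of 141 (46.8%) were called lower and 22 (15.6%) higher in ExE, against 82.9% and 1.30% of all windows, and the median difference was -5.18 points against -16.5 points. At E6.5 these were 29 and 4 of 107 tested, against 59.6% and 0.663% of all windows (18 lower without B6/CAST ExE replicate 1, and 7 higher without CAST/B6 ExE replicate 1). The members have many short, CpG-dense windows, so the counts are also given by length. Among E7.5 windows of 3000 bp or longer, 48 of 71 (67.6%) member windows were lower and 3 (4.23%) higher, against 91.2% and 0.284% of all windows of that length. Among windows of 1000 to 3000 bp, 18 of 51 were lower and 18 higher (35.3% each), against 56.1% and 6.15%, with a median of 1.86 points in the members and -7.90 points in all. Below 1000 bp, 0 of 19 were lower and 1 higher (5.26%), against 3.36% and 6.20%. Of the 22 higher member windows at E7.5, 18 thus lay in the middle class, and these shares are given as a description without a test. At E6.5 the middle class held 3 lower and 1 higher of 30 member windows (10.0% and 3.33%, against 23.2% and 4.57% of all windows), and the longest class 26 lower and 3 higher of 67 (38.8% and 4.48%, against 65.2% and 0.174%).

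**Figure D4:**
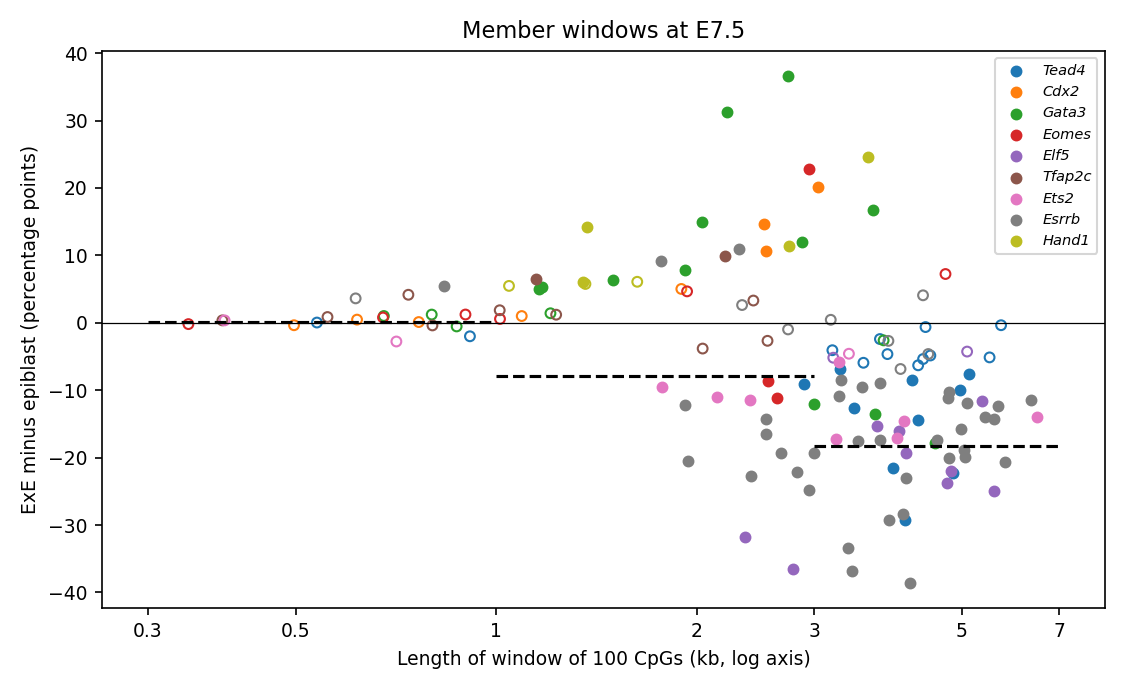
Difference in methylation (ExE minus epiblast, percentage points) of each member window at E7.5 against window length (kb, log axis), which falls as CpG density rises. Filled points were called and open points were not; the dashed lines give the median of all windows in each length class (0.0897, -7.90 and -18.3 points), and most points above 0 lie between 1000 and 3000 bp.

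The reciprocal crosses exchange the strain of the mother and the father. No member was called for cross at its start window or the rest of its locus in either tissue or day. Over all start windows and all windows none was called either (0% in each). For the rest of the locus, 20.6% of all genes were called higher and 0.0157% lower in CAST/B6 than in B6/CAST ExE at E6.5, and 0 of the 9 members. That count over all genes (3926) was 0 without either B6/CAST library, without CAST/B6 replicate 1, relative to library means and with the replicate block. The CAST/B6 libraries had higher means over the whole genome at E6.5, as given above. Over the rest of the locus, Esrrb differed most of the members in E6.5 epiblast (7.12 points, SE 2.86, adjusted p = 0.156) and in E6.5 ExE (6.97 points, SE 3.69, adjusted p = 0.190). Among start windows the widest were Elf5 in E6.5 epiblast (11.3 points) and Esrrb in E6.5 ExE (16.3 points, adjusted p = 0.233). Tests by limma of single member windows for cross at an unadjusted p under 0.05 gave 6 of 91 and 4 of 109 windows in E6.5 epiblast and ExE, and 9 and 3 of 141 at E7.5. Over all windows these were 27360 of 192419 and 59327 of 254322 at E6.5, and 22261 and 22130 of 383556 at E7.5. At E7.5 the rest of the locus differed between crosses by -2.97 to 1.34 points in epiblast and -1.61 to 3.39 points in ExE. The tissue difference itself was not found to depend on the cross: 0 of 107 (E6.5) and 0 of 141 (E7.5) member windows were called in the limma interaction test, with 4 at each day at an unadjusted p under 0.05. Over all windows 15804 of 250886 and 18530 of 383556 had such a p.

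At E7.5 the reads were also assigned to the maternal and paternal allele. Values were available in all 4 libraries for 86 of 141 member windows in epiblast and 110 in ExE, and none was called in the limma test of maternal minus paternal methylation. At an unadjusted p under 0.05 there were 3 and 1, against 11608 of 238529 and 20303 of 318358 over all windows. Of all windows, 0.00838% were called in epiblast and 0.00722% in ExE. The differences ranged from -19.8 to 15.9 points in epiblast and from -16.1 to 12.4 points in ExE, with medians of -0.39 and -0.30 points. The Elf5 start window had 90.9%, 71.1%, 100% and 96.7% on the maternal and 91.4%, 80.8%, 90% and 90% on the paternal allele in epiblast, and 54.7%, 60.1%, 58.9% and 68.5% against 66.9%, 65.9%, 69.8% and 68.3% in ExE. Both Elf5 alleles were therefore below the epiblast levels in ExE, and their difference of -7.18 points in ExE (adjusted p = 0.802) did not pass the test. The Gata3 window chr2:9884212-9886430 had 31.0%, 39.3%, 23.8% and 44.8% on the maternal and 41.0%, 46.0%, 40.0% and 46.7% on the paternal allele in ExE, so the methylation of this window in ExE lay on both alleles. For Hand1, 0 windows in epiblast and 1 in ExE had a value for both alleles in every library, so its alleles could hardly be compared.

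Averaged over the rest of the locus, 8 members in epiblast and 9 in ExE could be tested for parental origin. None was called, and none had an unadjusted p under 0.05 (limma). Of all genes, 0.00572% were called in epiblast and 0% in ExE. The widest intervals belong to genes with few informative windows, such as Hand1 in ExE (1 window, -13.7 points, SE 11.6). For long genes the estimates were tighter: Esrrb differed by -0.767 points (SE 1.36, 39 windows) and Tead4 by 1.84 points (SE 1.35, 20 windows) in ExE. The same fit gave the difference of the B6 and CAST alleles, whichever parent carried them. It called 0 member windows in each tissue (2 of 86 in epiblast and 9 of 110 in ExE at an unadjusted p under 0.05), as it did of all windows (15868 of 238529 and 27808 of 318358). Of these 9, 6 lay in Esrrb, which holds 40 of the 110 tested. Ets2 showed the largest strain difference relative to its error in ExE, with the B6 allele 5.88 points below the CAST allele (SE 1.61, 3 windows, adjusted p = 0.380).

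The matDKO/CAST embryos inherit a maternal genome without de novo methylation from the oocyte, and were compared with B6/CAST, which has B6 mothers and CAST fathers but no 129 background. The deletion and the 129 background cannot be told apart in this comparison. In matDKO/CAST epiblast, 2 of the 9 members were called lower over the rest of the locus, against 70.2% lower and 0.0492% higher of all genes (median -14.9 points). Esrrb had 62.3%, 67.2% and 69.8% in B6/CAST and 50.3% and 50% in matDKO/CAST (-16.3 points, SE 3.20, adjusted p = 0.0052). Tead4 had 71.2%, 71.7% and 76.5% against 61.6% and 65.9% (-9.40 points, adjusted p = 0.0375). The groups did not overlap in these 2 genes, but the call of Tead4 was lost without B6/CAST replicate 3 (adjusted p = 0.0582), the B6/CAST library whose number matched no sample title (0.0924) or matDKO/CAST replicate 1 (0.166). Elf5 differed by -8.96 points (adjusted p = 0.159), and its 2 matDKO/CAST epiblast libraries disagreed, at 73.8% and 54.8%; without replicate 1, the higher, it was called (-17.2 points, adjusted p = 0.0125). Eomes (-6.73 points), Gata3 (-4.57 points) and Ets2 (-3.99 points) did not pass the test, and Cdx2, Tfap2c and Hand1, which are low in epiblast, differed by -0.413, -0.232 and 2.54 points. Only windows with a value in every epiblast library were averaged, 5 of 9 for Elf5, 29 of 39 for Esrrb and 10 of 15 for Gata3. The window at the internal Elf5 start was left out. In ExE below, 8 of 9 windows entered for Elf5, 36 of 39 for Esrrb and 13 of 15 for Gata3, so the tissues average different windows.

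In matDKO/CAST ExE, 5 of 9 members were called lower over the rest of the locus, against 57.9% lower and 0.0105% higher of all genes (median -11.5 points). Elf5 had 54.3% and 56.3% in B6/CAST and 42.4%, 45.1% and 42.0% in matDKO/CAST (-12.1 points, adjusted p = 0.0241). Esrrb had 54.4% and 54.2% against 37.3%, 45.5% and 42.2% (-12.6 points, adjusted p = 0.0205), and Tead4 71.6% and 71.1% against 61.5%, 64.2% and 57.1% (-10.4 points, adjusted p = 0.026). Eomes had 27.9% and 27.6% against 13.6%, 16.7% and 20.9% (-10.7 points, adjusted p = 0.0246), and Gata3 32.8% and 34.1% against 24.4%, 26.5% and 25.7% (-7.94 points, adjusted p = 0.039). Each of these 5 loci was thus lower in every matDKO/CAST library than in either B6/CAST library. All 5 calls were lost when either B6/CAST ExE library was left out (-13.1 to -7.30 points, adjusted p 0.0981 to 0.177), in a fit where the remaining one is assumed to vary like the other groups. In those fits 0 of 19068 genes were called, so the loss was not particular to the members. Without matDKO/CAST replicate 1 those of Elf5 (0.0517) and Gata3 (0.0708) were lost, and that of Gata3 also without replicate 2 (0.0595) or 3 (0.0739). Ets2 (-9.78 points), Tfap2c (-5.33 points), Hand1 (-5.39 points) and Cdx2 (1.53 points) did not pass the test, but without matDKO/CAST replicate 2 Ets2 (-14 points, adjusted p = 0.0471) and Hand1 (-11.6 points, adjusted p = 0.0407) did. Relative to the mean of each library, which adds 16.7 points in epiblast and 12.4 points in ExE, no member was called lower in either tissue. On that scale Esrrb (0.40 points) and Tead4 (7.30 points) turned direction in epiblast, and Elf5 (0.29 points), Eomes (1.79 points), Gata3 (4.49 points) and Tead4 (2.07 points) in ExE.

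**Figure D5:**
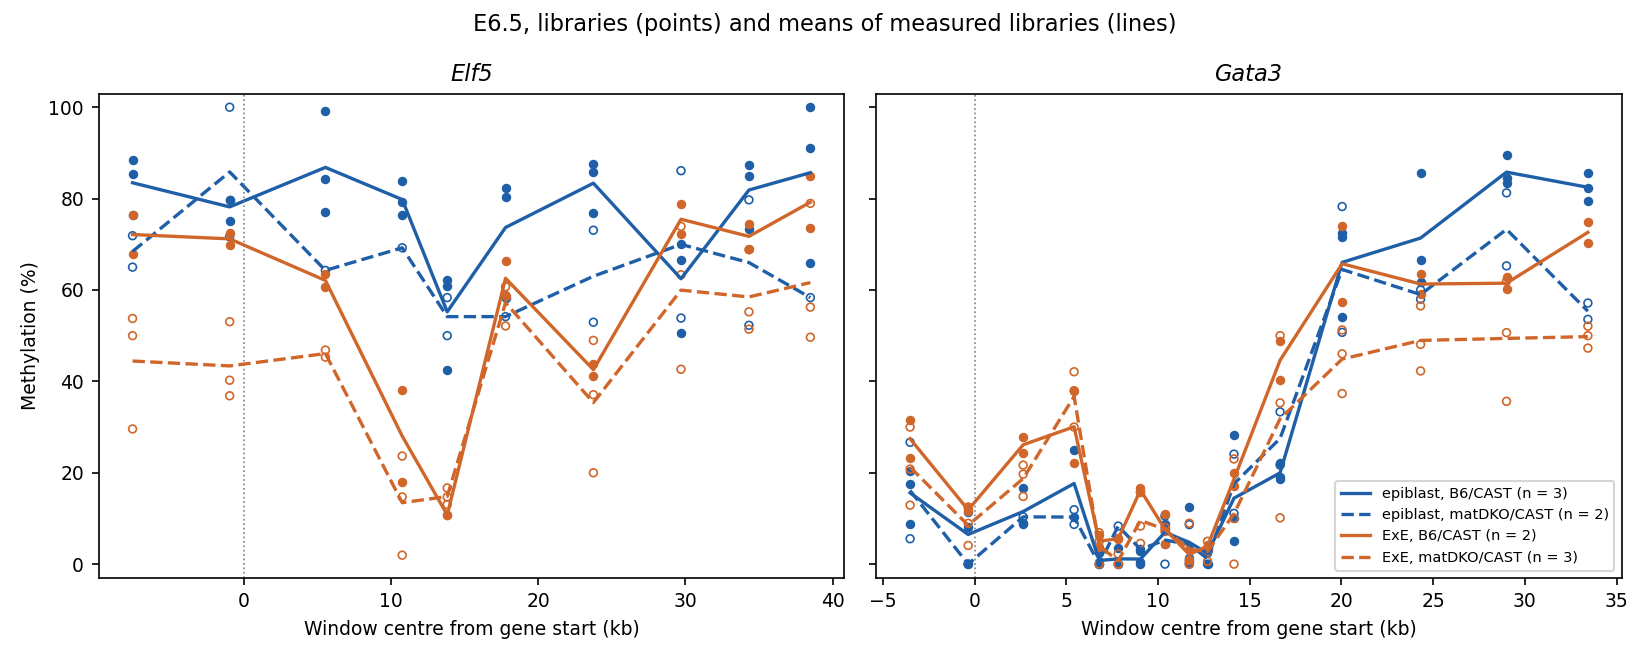
Methylation (percent) along Elf5 and Gata3 at E6.5 in B6/CAST (filled points, solid lines) and matDKO/CAST (open points, dashed lines) against the distance of the window centre from the gene start (kb). Points are libraries, lines are means of the measured libraries, blue is epiblast and orange is ExE. Around the internal Elf5 start the ExE values are below the epiblast values in both genotypes, but a matDKO/CAST epiblast library has no value there.

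No start window of a member was called in matDKO/CAST, with 5 tested in each tissue (1 in epiblast and 2 in ExE at an unadjusted p under 0.05, limma). Of all start windows, 11.8% were called lower and 0.106% higher in epiblast and 0% in ExE, where 1903 had an unadjusted p under 0.05. In ExE the Elf5 start window had 72.5% and 69.9% in B6/CAST and 40.2%, 53.1% and 36.8% in matDKO/CAST (-27.8 points, SE 7.36, adjusted p = 0.132), without overlap. The Esrrb start window had 36.5% and 49.6% in B6/CAST ExE and 26.9%, 19.9% and 14.3% in matDKO/CAST ExE (-22.7 points, adjusted p = 0.134). In epiblast it had 50% and 47.1% in matDKO/CAST, a difference of -20.2 points (adjusted p = 0.0800). With both wild type crosses as the reference, the differences in ExE were called for Elf5 (-31.4 points, adjusted p = 0.0333) and Esrrb (-30.9 points, adjusted p = 0.0336), as was that of Esrrb in epiblast (-20.4 points, adjusted p = 0.0317), which was also called against B6/CAST without its replicate 1 (-25.0 points, adjusted p = 0.0456). With this reference the calls rose over the whole genome too, to 66824 of 254322 windows lower in ExE (0 against B6/CAST) and 91731 of 192419 in epiblast (45008). In matDKO/CAST epiblast the Elf5 start window had 71.7% and 100%.

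Among single windows in matDKO/CAST epiblast, 10 of 91 member windows were called lower (against 23.4% lower and 0.0291% higher of all windows, median -16.4 points; 4 without B6/CAST replicate 3 or the library of unmatched number, when the count over all windows fell from 45008 to 20802 or 10473), 7 of them in Esrrb and 1 each in Eomes, Gata3 and Tead4. The intronic Esrrb windows chr12:86477805-86482486 (28.8% and 32.5% in matDKO/CAST, -43.9 points, adjusted p = 0.0129) and chr12:86492391-86497117 (40.9% and 31.2%, -44.6 points, adjusted p = 0.0129) were among the lowest, as was chr12:86511390-86516471 (-49.8 points, adjusted p = 0.0233). The Eomes window chr9:118482023-118484689 fell to 55.0% and 50% (-23.8 points, adjusted p = 0.0228). In ExE, limma called 0 of 109 member windows (24 at an unadjusted p under 0.05), as it did of all windows (65546 at an unadjusted p under 0.05). The tissue pattern at the internal Elf5 start was also seen in the values of these embryos: chr2:103420839-103424084 had 69.2% in the 1 matDKO/CAST epiblast library with a value, and 23.7%, 14.7% and 1.96% in ExE. At the Gata3 window chr2:9871973-9874786, matDKO/CAST ExE had 10.1%, 50% and 35.3%, and replicate 1 was below the 2 others.

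Whether the matDKO/CAST difference itself differed between tissues was tested over all 15 E6.5 libraries. No member was called (against 0.00558% of all genes for the rest of the locus), for the rest of the locus (9 tested, adjusted p 0.741 to 0.993) or the start window (4 tested, adjusted p 0.435 to 0.978). The widest difference of differences was that of the Elf5 start window, at -35.5 points (adjusted p = 0.435). Of single member windows, limma called 0 of 82, with 7 at an unadjusted p under 0.05, against 14723 of 167307 over all windows. Genes called in one tissue and not in the other are therefore not shown to respond differently.

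Other regulators of the trophoblast and the epiblast were counted beside the members at E7.5. Shares of all genes at that day were 43.9% lower and 2.80% higher for start windows, counted by gene, and 95.4% lower and 1.42% higher for the rest of the locus. Of 17 other trophoblast genes (Klf5, Gata2, Sox2, Fgfr2, Bmp4, Cdh3, Tfap2a, Id2, Arid3a, Satb1, Gcm1, Ovol2, Pparg, Dlx3, Msx2, Sox21 and Ascl2), 2 start windows were called lower and 4 higher in ExE of 16 tested, and the rest of the locus was lower in 8 and higher in 5. The largest were Gcm1, a factor of syncytiotrophoblast formation (-14.7 points, adjusted p = 0.021), Tfap2a, a relative of Tfap2c (14.5 points, adjusted p = 0.000481), and Ascl2, an imprinted gene needed for the spongiotrophoblast (11.8 points, adjusted p = 0.00227). Of 11 epiblast genes, 1 start window was lower and 4 higher, and the rest of the locus was lower in 6 and higher in 3. The pluripotency genes Pou5f1 (20.8 points, adjusted p = 0.000199), Foxd3 (15 points, adjusted p = 0.000755) and Nanog (13.4 points, adjusted p = 0.00156) had the largest differences.

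Elf5 was the member with the largest start window difference at E7.5, and its pattern was compared with that of 20503 genes. The start windows of Il1rl1, Hint3 and Lman1l were the nearest, with Euclidean distances of 6.20, 6.24 and 6.78 points over the 8 libraries.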

How the data were processed

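The authors trimmed reads with Trim Galore 0.4.4 and aligned them with Bismark 0.20.0 (versions from the submitters' processing notes; the study's methods name others) to GRCm38 with CAST variants masked, and assigned alleles with SNPsplit. Some 129 alleles remained in the matDKO/CAST line, and 1 matDKO/CAST epiblast replicate was left out by the authors for low mappability. Bisulphite conversion had been repeated for the E7.5 libraries after a poor first conversion. The deposited values are percent methylation per window of 100 CpGs, without coverage, so depth is unknown, counts could not be modelled and no counting interval is given. The number of libraries limits precision. The number of 1 B6/CAST epiblast column at E6.5 (2) matched no sample title of its group, so it entered as a member of the group with no replicate number.

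Each comparison was fitted with limma 3.58.1 (R 4.3.3) on percent values over autosomal windows with a value in every library of the fit, with Benjamini-Hochberg adjustment over all of them and a threshold of 0.05. Cross was a covariate for tissue, matDKO/CAST was compared with B6/CAST in a fit of 3 crosses, and alleles were compared as differences within libraries. The rest of a locus was the plain mean of its windows per library, fitted over all genes. Rows were joined with GenomicRanges 1.54.1, and the scripts were tested on simulated data. The windows of E6.5 and E7.5 differ and were never tested against each other. All members were named, with up to 3 genes of each other list by size of the E7.5 start window difference. The members and lists were chosen with earlier results of these data known, and 1 further gene of the list of other trophoblast genes, beyond the 17 counted, is not reported here. Alternatives were another scale, centring, variance moderation, filter, threshold, window rule, reference and covariate, a replicate block, and leaving out each library.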

Additional observations from a re-analysis of the deposited data

How the results depend on the processing

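The results were recomputed on the logit scale, with trend and robust variance moderation, with each library's mean subtracted, with values required in at least 2 libraries a group, with a minimum difference of 20 points, with the window that overlaps most with the region around the start, with other summaries of the locus, with another reference for matDKO/CAST, and without each library. Leaving out a library kept the call of 904 values, with 24 weaker and 4 stronger. The other alternatives kept the call of 1364, with 46 weaker, 20 stronger and 18 reversed. Values called under neither setting count as kept whatever their sign. For alleles, strains and crosses no member was called under any of them, start windows and rest of the locus alike. The alternatives for the strain comparison were chosen after seeing the data. The filter on missing values was not run for the rest of the locus, nor the logit scale for the rest of the locus by allele. Depth behind the values is unknown at both days, and more windows lacked values at E6.5.

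The gene body alone turned the rest of the Eomes locus at E7.5 to -2.93 points. Every other reversal of a value called under either setting came from subtracting library means, which adds a constant to every difference. At E6.5 the rest of the locus between tissues then gave Esrrb 4.07, Ets2 4.85, Tead4 9.26, Cdx2 16.0 and Eomes 13.5 points and the start window of Tfap2c 16.0, and at E7.5 Esrrb 2.41, Ets2 5.86 and Tead4 7.67, with start windows of Ets2 at 13.6 and Tead4 at 14.3. In matDKO/CAST epiblast it gave Esrrb 0.40 and Tead4 7.30 points, and in matDKO/CAST ExE Elf5 0.29, Eomes 1.79, Gata3 4.49 and Tead4 2.07. The counts of members at E6.5 became 0 lower and 2 higher start windows, 1 lower and 6 higher rests of loci, and 3 lower and 35 higher windows. At E7.5 they became 0 lower and 8 higher start windows, 0 lower and 8 higher rests of loci, and 9 lower and 81 higher windows. Over all windows, 72868 were then lower and 79853 higher at E7.5 (317793 and 4980 as deposited), and 15690 and 21728 at E6.5 (149574 and 1664). Over all genes, the rest of the locus was lower in 3449 and higher in 11528 of 20060 at E7.5, and in 2063 and 7850 of 19070 at E6.5. In matDKO/CAST 0 members and 0 epiblast windows stayed lower, against 1 of 18295 genes in epiblast, 0 of 19068 in ExE and 0 of 192419 epiblast windows.

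Requiring 20 points left, at E6.5, 0 start windows and 1 rest of a locus lower, 0 higher, and 13 lower and 1 higher window. Over the whole genome 3965 of 19070 rests and 96275 of 250886 windows were lower, and 11 rests and 567 windows higher. At E7.5 it left 0 start windows higher, 0 rests lower and 0 higher, and 20 lower and 5 higher windows. Over the whole genome these were 3787 of 20060 rests and 139005 of 383556 windows lower, and 4 rests and 674 windows higher. In either matDKO/CAST tissue 0 rests were left lower, against 3975 of 18295 in epiblast and 894 of 19068 in ExE. On the logit scale, E6.5 had 0 start windows lower and 0 rests higher, E7.5 had 5 rests higher, and matDKO/CAST epiblast had 1 rest and 0 windows lower. Over all genes that scale gave 211 of 19070 rests higher at E6.5 and 291 of 20060 at E7.5. In matDKO/CAST epiblast it gave 10893 of 18295 rests and 0 of 192419 windows lower. Trend and robust moderation also gave 5 rests higher at E7.5, adding Eomes and Tfap2c, against 291 of 20060 over all genes. The window with the largest overlap with 1000 bp before to 500 bp after the annotated gene start gave 2 higher start windows at E7.5, adding Cdx2. At E6.5, 0 rests were higher with no cross term, a mean weighted by overlap or the gene body alone, and 7 windows were higher with 2 libraries a group, adding 1 each of Cdx2, Hand1 and Gata3. Over all genes 161 of 19070, 176 of 19070 and 248 of 17958 rests were higher in those settings, and 2158 of 320376 windows with 2 libraries a group. With both crosses as wild type, matDKO/CAST had 1 start window and 23 windows lower in epiblast and 2 start windows and 22 windows in ExE, while over the whole genome 91731 of 192419 and 66824 of 254322 windows were lower (45008 and 0 against B6/CAST). With matDKO/CAST and B6/CAST alone, 1 rest and 0 windows were lower in epiblast, against 9910 of 18344 rests and 0 of 196459 windows over the whole genome. For matDKO/CAST ExE, 3 rests were lower in the gene body alone and 2 with windows by midpoint, against 9234 of 17999 and 9235 of 17332 over all genes. The cause of these changes was not tested.

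Without each library in turn, E6.5 between tissues gave 0 to 1 lower start windows, 0 to 1 higher rests, 18 to 33 lower and 3 to 7 higher windows. Over the whole genome those fits gave 178 to 212 higher rests, 120973 to 156695 lower and 1236 to 1732 higher windows. For matDKO/CAST epiblast the member counts were 0 to 1 lower start windows, 1 to 2 lower rests and 4 to 14 lower windows, and for matDKO/CAST ExE up to 6 lower rests, with the losses given above. Over the whole genome, 10473 to 55365 windows and 10025 to 13540 rests were lower in epiblast without a B6/CAST library. In ExE 8302 to 9728 rests were lower without a matDKO/CAST library.

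Replicate numbers were shared between groups, but the deviations of same-numbered libraries correlated little (-0.0996 to 0.0322 over 27 pairs at E6.5, -0.0538 to 0.0506 over 12 at E7.5), so the numbers were not taken as pairs. Between the tissues of a cross these were -5.47e-05 to 0.0294 (5 pairs, E6.5) and 0.0486 to 0.0506 (4 pairs, E7.5). In a group of 2 libraries the deviations mirror each other, so the pairs are not independent. With a replicate block, E6.5 between tissues gave 0 lower start windows, 2 lower and 0 higher rests, and 11 lower and 1 higher window. Over all genes 10727 of 19258 rests were then lower and 118 higher, and 54432 of 274214 windows lower and 405 higher. In matDKO/CAST epiblast it gave 0 lower rests and 0 lower windows, as over all genes and windows (0 of 18351 and 0 of 196912). For matDKO/CAST ExE it gave 3 lower rests, against 10948 of 19654 over all genes. The block uses fewer libraries at E6.5, those whose number is shared.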
